A study of Mus musculus with 8 samples.

Results

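Early blood and vessel regulators were followed through 7 genes, Etv2, Tal1, Lmo2, Runx1, Fli1, Erg and Pecam1. They were chosen by name: a probe belonged to the set when its symbol in the platform annotation, brought to its current form, was among these names. Each gene had 1 probe, and the 7 genes are part of 16390 named genes on the array. The cells were embryoid bodies, which are free-floating aggregates of differentiating cells, of the mouse embryonic stem line iTbx6 T-GFP, in which doxycycline (Dox) is the inducer. All 4 groups came from this line and grew in the serum-free medium SFD without added growth factors. The groups were day 2 with Dox (DoxOn_day2), day 2 without Dox (DoxOFF_day2), day 4 with Dox (DoxOn_day4) and day 4 without Dox (DoxOFF_day4), with 2 single-colour arrays in each. At day 2 the bodies were taken apart and left to aggregate again until day 4. The labels state no hour of Dox addition. Since cells lacking the transgene were not treated with Dox here, effects of Dox and of Tbx6 induction cannot be told apart. Nothing in the labels says that the replicates were separate cultures, so p-values measure the spread between arrays alone, and that spread may be technical.

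In the mouse embryo, blood and endothelial cells arise from mesoderm that carries the VEGF receptor Kdr. Etv2, a transcription factor of the ETS family, acts for a short time near the top of this program. Tal1, a basic helix-loop-helix factor, binds DNA with E-protein partners, and Lmo2, a LIM-only adaptor, joins it to Ldb1 and GATA factors in a shared complex. Runx1, with its partner Cbfb, is needed for blood formation from hemogenic endothelium. Fli1 and Erg are ETS factors of blood progenitors and endothelium. Pecam1 (CD31) is an adhesion molecule of endothelial junctions, platelets and white cells, and it is also carried by undifferentiated mouse embryonic stem cells.

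RefSeq promoter windows (GRCm38.p6, 250 bases before to 50 bases after a start site) were on hand for 4 of the 7 genes, namely 1 window of Etv2, 2 of Tal1, 2 of Runx1 and 3 of Erg. They were searched on both strands for an ETS core (CGGAAG), an E-box (CANNTG), a GATA motif (AGATAA), a RUNX motif (TGTGGT) and a T-box motif (AGGTGT), which are letters bound by the factor families of these genes and of Tbx6. Of all 32851 mouse windows, 16.85% held the ETS core, 72.31% an E-box, 11.18% the GATA motif, 16.76% the RUNX motif and 13.74% the T-box motif. The Etv2 window (chr7:30635803-30636102, minus strand) is printed because Etv2 gave the largest Dox response at day 4 of the 7 genes. The first Tal1 window (chr4:115056176-115056475, plus strand), the first Runx1 window (chr16:92826025-92826324, minus strand) and the third Erg window (chr16:95459299-95459598, minus strand) are printed because they hold motifs. Each runs 5′ to 3′ on the strand of its gene, with motif letters in capitals.
Etv2: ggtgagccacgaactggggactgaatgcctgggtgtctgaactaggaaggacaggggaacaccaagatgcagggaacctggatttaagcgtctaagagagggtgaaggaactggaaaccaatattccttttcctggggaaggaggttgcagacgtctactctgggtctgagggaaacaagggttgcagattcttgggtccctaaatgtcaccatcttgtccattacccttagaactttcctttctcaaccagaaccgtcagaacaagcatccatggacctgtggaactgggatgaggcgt
Tal1: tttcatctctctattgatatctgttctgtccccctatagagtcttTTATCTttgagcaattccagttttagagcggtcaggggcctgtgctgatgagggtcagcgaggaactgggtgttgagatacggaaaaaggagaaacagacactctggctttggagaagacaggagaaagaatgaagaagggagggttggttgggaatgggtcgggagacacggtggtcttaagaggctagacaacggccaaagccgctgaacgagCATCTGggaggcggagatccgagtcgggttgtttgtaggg
Runx1: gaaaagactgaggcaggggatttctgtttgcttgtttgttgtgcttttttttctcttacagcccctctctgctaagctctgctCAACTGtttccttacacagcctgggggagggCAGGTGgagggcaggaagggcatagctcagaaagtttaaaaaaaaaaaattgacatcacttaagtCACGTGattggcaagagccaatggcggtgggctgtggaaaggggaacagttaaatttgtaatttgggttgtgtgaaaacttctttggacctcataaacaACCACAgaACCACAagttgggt
Erg: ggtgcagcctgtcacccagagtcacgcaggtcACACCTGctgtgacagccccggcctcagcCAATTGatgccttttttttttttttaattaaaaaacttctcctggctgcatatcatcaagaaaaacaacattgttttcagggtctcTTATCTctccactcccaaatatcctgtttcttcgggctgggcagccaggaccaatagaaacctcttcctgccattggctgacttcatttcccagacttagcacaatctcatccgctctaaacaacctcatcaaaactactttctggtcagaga
None of the 5 motifs was found in the Etv2 window. The Tal1 window held 1 GATA motif, on the opposite strand at position -205 from the start, and 1 E-box. The Runx1 window held 3 E-boxes before the start and 2 RUNX motifs on the opposite strand after it. In the Erg window the T-box motif overlapped the first of 2 E-boxes, and a GATA motif followed. No motif was found in the remaining windows of Tal1, Runx1 and Erg. These matches describe letters in the windows and no binding was measured.

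On each array the mean of the blank spots was subtracted, the arrays were quantile normalized, and values were put on a log2 scale with a floor at 1.04, the level of 2 standard deviations (SD) of the blank spots. A probe counted as above background where its scanner intensity exceeded the blank mean by over 2 SD. The probes of Etv2, Tal1, Lmo2, Runx1 and Erg were above background on 8 of 8 arrays, that of Pecam1 on 6, and that of Fli1 on 3. Against the brighter negative control spots, Tal1 passed on 7 arrays, Runx1 on 5 and Fli1 on 0. All 7 probes passed the filter for testing, which kept 21661 of 23473 gene probes. Errors below are standard errors (SE) of the limma fit with n = 2 arrays per group, and adjusted p-values are limma's with Benjamini-Hochberg adjustment over all probes tested, called at 0.05.

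**Figure D1:**
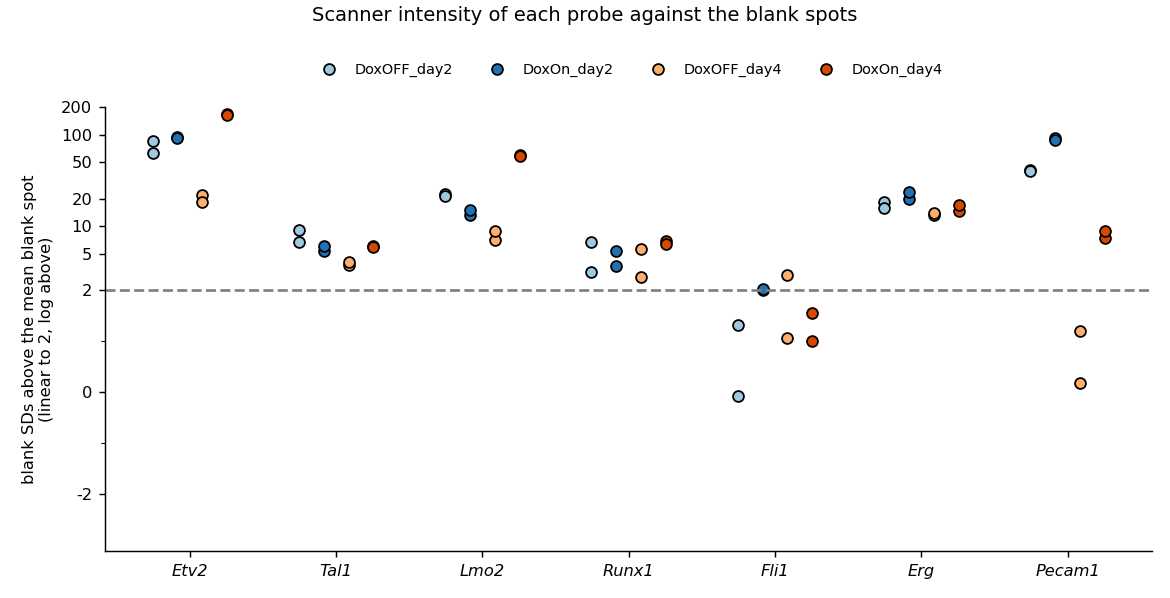
Scanner intensity of each probe on each of the 8 arrays, in blank SDs above the mean of the blank spots (vertical axis, linear up to 2 and logarithmic above), with 1 circle per array and the threshold of 2 SD dashed. Fli1 lay at or below 2.91 SD on every array, Runx1 between 2.77 and 6.91, Tal1 between 3.80 and 9.06, and the Pecam1 circles without Dox at day 4 lay at 0.17 and 1.21.

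Etv2 was highest with Dox at day 4 and lowest without Dox at day 4. Its log2 intensity was 6.57 and 6.54 with Dox at day 2, against 6.19 and 6.48 in the Dox-free arrays of that day, then 7.32 and 7.37 at day 4 with Dox and 4.82 and 4.30 without it. The groups did not overlap at either day, but at day 2 they lay side by side. Of all probes tested, 52.6% did not overlap between Dox and no Dox at day 2 and 62.9% at day 4. At day 4 Etv2 was 6.91-fold higher with Dox (log2 change 2.79 ± 0.19, limma adjusted p = 6.7e-05). At day 2 the change was 0.22 ± 0.19 and did not pass the threshold (adjusted p = 0.548; 95% interval -0.23 to 0.66). Without Dox, Etv2 fell 3.43-fold from day 2 to day 4 (log2 change -1.78 ± 0.19, adjusted p = 0.000391). With Dox it rose 1.73-fold over the same days (0.79 ± 0.19, adjusted p = 0.0276). That rise lost its call without any single Dox array (DoxOn_day2 replicate 1 or 2, DoxOn_day4 replicate 1 or 2; adjusted p between 0.100 and 0.119), with no filter on dim probes (adjusted p = 0.0578) and with double the floor (adjusted p = 0.055). In the order of the 4 group means, from Dox at day 4 through Dox and no Dox at day 2 to no Dox at day 4, the day 2 pair did not differ beyond the threshold and the other neighbours did.

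Lmo2 also reached its top with Dox at day 4, and it moved the other way at day 2. The 2 arrays with Dox at day 2 gave 3.79 and 3.87 on the log2 scale, against 4.66 and 4.50 without Dox. At day 4 they gave 5.86 and 5.90 with Dox and 3.18 and 3.28 without. No 2 groups overlapped. For a given pair of groups, 52.6% to 68.1% of all probes tested did not overlap either. All 3 steps in the order of the group means (Dox day 4, no Dox day 2, Dox day 2, no Dox day 4) passed the threshold, with limma adjusted p of 0.00037, 0.00563 and 0.00354. Dox went with a 1.68-fold lower level at day 2 (-0.75 ± 0.10, limma adjusted p = 0.00563) and a 6.27-fold higher level at day 4 (2.65 ± 0.10, adjusted p = 6.6e-06). Over time Lmo2 fell 2.55-fold without Dox (-1.35 ± 0.10, adjusted p = 8.9e-05) and rose 4.13-fold with it (2.05 ± 0.10, adjusted p = 6.3e-05).

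Tal1, the partner of Lmo2 in their complex, was dim and moved less. Its log2 intensity was 2.46 and 2.55 with Dox and 2.92 and 3.22 without at day 2, and 2.58 and 2.58 with Dox and 2.28 and 2.18 without at day 4. The day 2 arrays without Dox were the highest of the 8, and the day 4 arrays without Dox the lowest. Tal1 fell 1.79-fold from day 2 to day 4 without Dox (-0.84 ± 0.12, limma adjusted p = 0.00187), while with Dox the change over time was 0.07 ± 0.12 (adjusted p = 0.761; 95% interval -0.22 to 0.37). With Dox it was 1.47-fold lower at day 2 (-0.56 ± 0.12, adjusted p = 0.0312). That call ended without any single array other than DoxOFF_day2 replicate 1, with adjusted p between 0.0519 and 0.153. It also ended in 6 other settings given with the processing results. At day 4 the Dox change was 0.35 ± 0.12 and did not pass (adjusted p = 0.0758). It passed without DoxOFF_day2 replicate 1 (adjusted p = 0.0489) or without DoxOFF_day2 replicate 2 (adjusted p = 0.0478). Only the step from no Dox at day 2 down to Dox at day 4 passed among neighbours in the order of its means (adjusted p = 0.037).

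Runx1 showed no call in any comparison of Dox or time. Its 2 arrays lay far apart within 3 groups: 2.45 and 1.80 with Dox and 1.86 and 2.80 without at day 2, and 2.84 and 1.65 without Dox at day 4. With Dox at day 4 they lay close together, at 2.75 and 2.70. At day 4 the groups overlapped and the Dox change was 0.48 ± 0.46 (limma adjusted p = 0.494), with a 95% interval from -0.61 to 1.58. The interval is wide enough to hold a doubling (log2 change of 1), so a change of that size could not be seen here. No neighbours in the order of the Runx1 means differed beyond the threshold.

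The ETS factors Erg and Fli1 were not called either. Erg was above background throughout, at 4.35 and 4.51 with Dox and 4.35 and 4.03 without at day 2, then 3.82 and 4.11 with Dox and 4.11 and 3.92 without at day 4. These groups overlapped within each day. The Dox change of Erg was 0.24 ± 0.16 at day 2 (limma adjusted p = 0.437) and -0.05 ± 0.16 at day 4 (adjusted p = 0.865; 95% interval -0.44 to 0.34). With Dox the change from day 2 to day 4 was -0.46 ± 0.16 (adjusted p = 0.102). Fli1 was at the floor of 1.04 on 7 arrays and at 1.90 on the day 4 array without Dox, replicate 1. Both day 2 arrays with Dox exceeded the blank threshold on the scanner and came to the floor after normalization. Fli1 thus had no measured level in most groups, and no fold is given. Without DoxOFF_day4 replicate 2, the remaining array at 1.90 gave a called change of -0.88 for Dox at day 4 (adjusted p = 0.00397), of -0.88 for the difference between the days (adjusted p = 0.0121) and of 0.88 for time without Dox (adjusted p = 0.0028).

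Pecam1 fell over time and was higher with Dox on both days. On the log2 scale it measured 6.54 and 6.47 with Dox and 5.58 and 5.43 without at day 2, and 2.85 and 3.16 with Dox at day 4. Both day 4 arrays without Dox were at the floor of 1.04 and not above background. No groups overlapped, which held for 52.6% to 68.1% of all probes tested in a given pair of groups. The 3 steps in the order Dox day 2, no Dox day 2, Dox day 4, no Dox day 4 passed the threshold. Pecam1 was 2.00-fold higher with Dox at day 2 (log2 change 1.0 ± 0.13, limma adjusted p = 0.00411) and at least 3.32-fold higher at day 4 (adjusted p = 5.8e-05). From day 2 to day 4 it fell 11.3-fold with Dox (-3.50 ± 0.13, adjusted p = 2.4e-05) and at least 18.8-fold without (adjusted p = 1.4e-06). Each bound divides the brighter mean by the lowest level that counted as above background on the dimmer arrays.

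Summed over 6 pluripotency markers with a probe (Pou5f1, Nanog, Zfp42, Utf1, Dppa5a, Esrrb and Klf4 were listed, and 1 had no probe), linear intensity had its group values in the order of the Pecam1 means. The sums were 28549 to 29056 with Dox and 25744 to 27688 without at day 2, 8317 to 8641 with Dox at day 4, and 122 to 142 without. Outside the last group most of the sum was Dppa5a and Utf1, and single markers did not all keep this order. Nanog gave 11.01 and 10.77 on the log2 scale with Dox at day 4, above its 9.44 and 9.63 without Dox at day 2, and the day 2 levels of Dppa5a were 14.28 and 14.13 in the Dox-free arrays against 13.91 and 13.91 in the others. The sum over 6 nascent mesoderm markers (T, Mixl1, Mesp1, Eomes, Fgf8 and Tbx6) was 2503 to 2538 with Dox at day 4 and between 119 and 149 in the other groups. Etv2 and Lmo2 were also highest with Dox at day 4. Unlike the sum, they also moved between the other groups, with log2 changes of -1.78 and -1.35 over time without Dox. Mesp1 was above background on no day 4 array without Dox. The sum over 4 neural markers with a probe was 4047 to 4430 without Dox at day 4 and between 161 and 295 elsewhere. Nearly all of the high sum was Fabp7, at 11.89 and 12.02 on the log2 scale. Tubb3 was also higher without Dox at day 4 (6.90 and 7.12) than with it (5.41 and 5.49). Nes lay at 6.72 and 6.79 without Dox and 6.81 and 6.80 with it at day 4, and Pax6 was highest without Dox at day 2 (5.47 and 5.62, against 4.41 and 4.16 without Dox at day 4). The part of these markers in the changes of the 7 genes was not tested. In RNA of whole embryoid bodies, fewer cells of a type and less RNA per cell cannot be told apart.

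**Figure D2:**
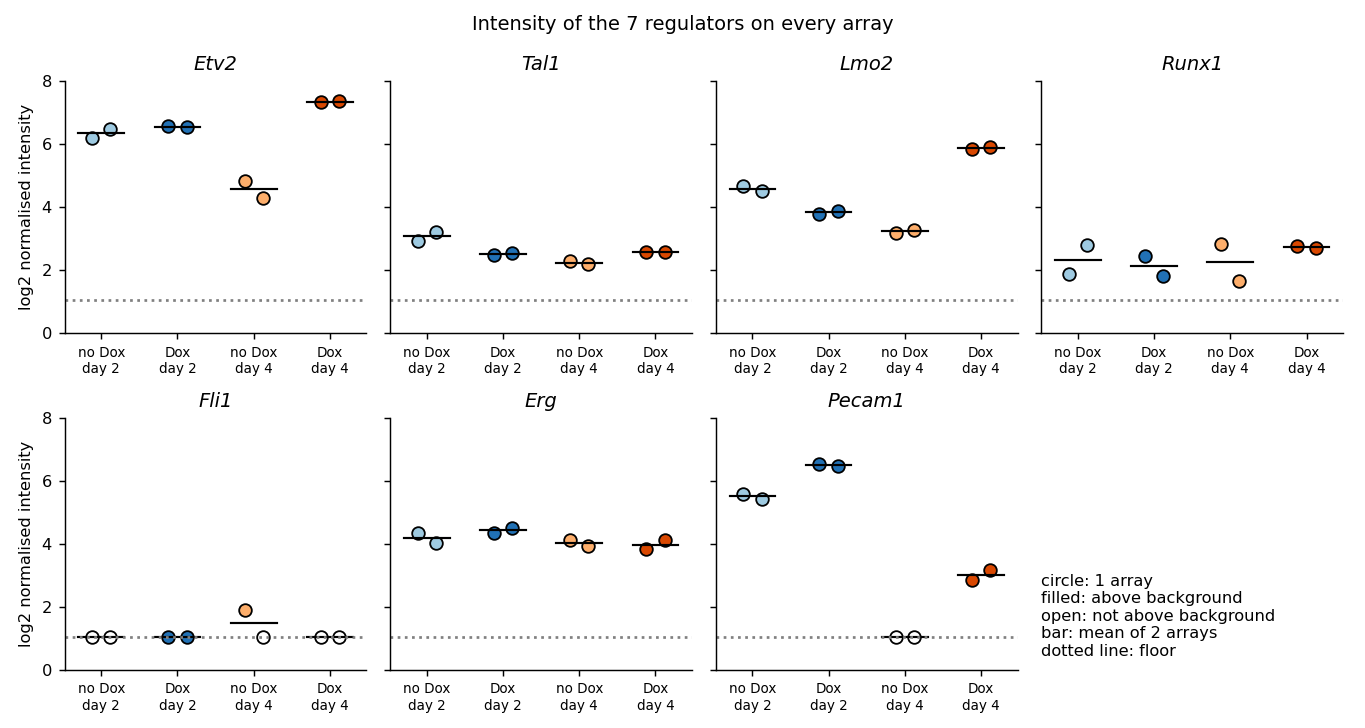
log2 normalized intensity (vertical axis) of the 7 genes on each of the 8 arrays, by group, with the mean of 2 arrays as a bar and the floor of 1.04 dotted. Etv2 (7.32 and 7.37) and Lmo2 (5.86 and 5.90) peak with Dox at day 4, Pecam1 (6.54 and 6.47) peaks with Dox at day 2, and open circles mark arrays not above background.

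Set against the whole array, the counts of called genes among the 7 were as follows. At day 2 Dox went with 1 higher (Pecam1) and 2 lower (Tal1 and Lmo2), where limma called 11.8% of all probes, 5.55% higher and 6.25% lower. At day 4 it went with 3 higher (Etv2, Lmo2 and Pecam1) and 0 lower, where 29.9% of all probes were called, 14.4% higher and 15.5% lower. At an unadjusted p under 0.05 the day 4 counts were 4 and 0, where 8564 of 21661 probes passed in either direction. Without Dox 4 of 7 fell over time (Etv2, Tal1, Lmo2 and Pecam1) and 0 rose, against 38.1% of all probes called, 20.2% higher and 17.9% lower. The counts were the same at an unadjusted p under 0.05, which 9963 of 21661 probes passed. With Dox 2 rose (Etv2 and Lmo2) and 1 fell (Pecam1), against 19.0% called, 9.63% higher and 9.33% lower. Between Dox at day 4 and no Dox at day 2, 2 were higher (Etv2 and Lmo2) and 2 lower (Tal1 and Pecam1), against 18.0% called, 8.72% higher and 9.27% lower. Between no Dox at day 4 and Dox at day 2, 3 were lower (Etv2, Lmo2 and Pecam1) and 0 higher, against 38.9% called, 20.7% higher and 18.2% lower. At an unadjusted p under 0.05 these counts were 4 lower and 0 higher, whereas the 38.9% is at adjusted p. The median change over the 7 genes was 0.00 for Dox at day 2, 0.48 at day 4, -0.84 for time without Dox and 0.07 with Dox, beside medians over all probes of -0.01, -0.04, 0.04 and 0.00. The comparisons share arrays, so these counts are not independent of each other.

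Whether the Dox response differed between the days was tested as the day 4 change minus the day 2 change. It was called higher for 4 of 7 genes and lower for 0, while 22.1% of all probes were called, 11.1% higher and 11.0% lower. The counts of the 7 genes were the same at an unadjusted p under 0.05, which 7398 of 21661 probes passed. Lmo2 had the largest difference of the 7 (3.40 ± 0.15, limma adjusted p = 2.3e-05), followed by Etv2 (2.57 ± 0.26, adjusted p = 0.000796). The difference was 0.91 ± 0.17 for Tal1 (adjusted p = 0.011) and was not called with no background correction (0.09, adjusted p = 0.108) or with normexp on the blank spots (0.10, adjusted p = 0.0954). That of Pecam1, 0.96 ± 0.18 (adjusted p = 0.0101), depends on the floor at day 4: it was -0.04 with double the floor (adjusted p = 0.948), -0.36 with no background correction (adjusted p = 0.00268) and -0.39 with normexp on the blank spots (adjusted p = 0.00229). Runx1, Fli1 and Erg gave 0.69 ± 0.65, -0.43 ± 0.35 and -0.29 ± 0.23, with adjusted p of 0.525, 0.461 and 0.443.

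**Figure D3:**
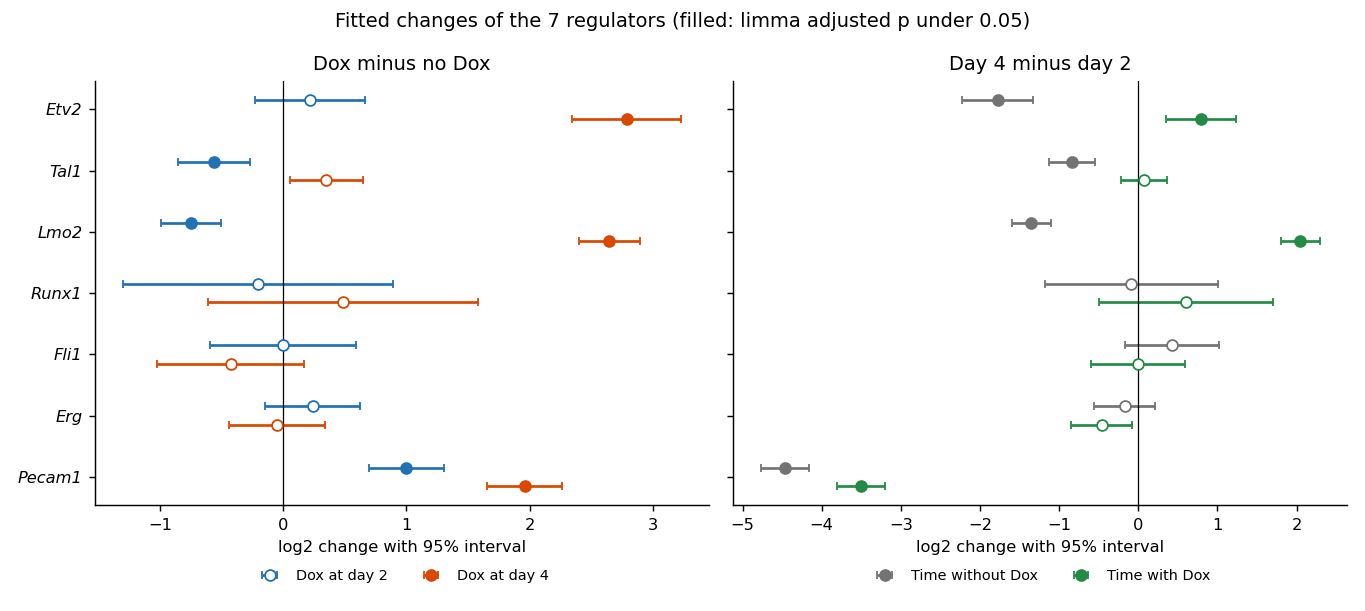
Fitted log2 changes of the 7 genes with 95% intervals (horizontal axis), Dox minus no Dox on the left and day 4 minus day 2 on the right, filled where limma's adjusted p was under 0.05. Lmo2 lies at -0.75 for Dox at day 2 and at 2.65 at day 4, and Etv2 at -1.78 over time without Dox and 0.79 with Dox; the Pecam1 values at day 4 depend on the floor.

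The size of the changes rests on the background correction. With no correction, where the blank level stays in the intensities, the Dox change at day 4 was 1.46 for Etv2, 0.81 for Lmo2 and 0.17 for Pecam1, each still called. With normexp on the local background that the scanner gives, which followed the brightness of the spot itself (correlation of logs 0.984 to 0.998), none of the 7 genes was called in any comparison.

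The Tbx6 probe gave 5.21 and 5.48 on the arrays labelled Dox-on at day 2 and 5.59 and 5.49 on those labelled Dox-off, a change of -0.20 ± 0.12 (limma adjusted p = 0.395). At day 4 it gave 6.10 and 6.23 with Dox and 5.50 and 5.58 without, 1.54-fold higher (0.62 ± 0.12, adjusted p = 0.00915), a call that ended without DoxOn_day4 replicate 2 or DoxOFF_day4 replicate 1 (adjusted p up to 0.0521). No source used here gives the place of this probe relative to the inserted sequence, so it does not check the labels, and directions are those of the arrays as labelled.

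Upstream of the 7 genes, a list of signals and mesoderm factors that open the blood and vessel program was read in the same fit (14 of 15 genes tested; Fgf2 was above background on 1 array and not tested). At day 2, 1 was higher with Dox and 1 lower, with a list median of 0.17, where 5.55% of all probes were higher and 6.25% lower. Bmp4, a ligand that patterns ventral mesoderm, was 34.0-fold higher (5.09 ± 0.10, limma adjusted p = 8.4e-06), and Vegfa, the ligand of Kdr, was lower (-1.17 ± 0.16, adjusted p = 0.00615). At day 4, 8 were higher and 2 lower, with a median of 0.62, where 14.4% of all probes were higher and 15.5% lower. Tbx6, the induced gene of this line, was itself among the 8. Its call and that of Smad1 (0.48) each ended when single day 4 arrays were left out. The 2 lower genes were Smad5 (-0.80, limma adjusted p = 0.00563) and Bmpr1a (-0.50, adjusted p = 0.00663). Neither of these 2 calls ended when a single array was left out. Mesp1 and T, factors of early mesoderm and of the primitive streak, were at least 267-fold and 93.4-fold higher, and Eomes and Bmp4 were higher by 3.55 ± 0.11 and 3.96 ± 0.10 (adjusted p of 4.6e-07, 4.6e-07, 2.5e-06 and 1.3e-06). Over time with Dox, Mesp1, T and Eomes rose by 7.17, 6.67 and 2.88 on the log2 scale. Bmp4 changed by -2.80 over time with Dox and by -1.67 without. Vegfa turned to 1.40 ± 0.16 (adjusted p = 0.000961), so its Dox response changed sign between the days, as that of Lmo2 did. Kdr, the receptor that marks the mesoderm from which blood and endothelium arise, gave 4.80 and 4.83 with Dox and 4.40 and 4.61 without at day 2. At day 4 it gave 5.18 and 4.87 with Dox and 4.68 and 4.56 without. The Kdr changes were 0.31 ± 0.14 and 0.40 ± 0.14 and did not pass the threshold (adjusted p = 0.221 and 0.0718).

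Among 25 partner factors of these regulators, 23 were tested, since Hhex and Mef2c had no probe here. At day 2, 2 were higher with Dox and 2 lower (median -0.07), where 5.55% of all probes were higher and 6.25% lower. Gata2, a GATA factor of blood progenitors, was 2.41-fold higher (1.27 ± 0.10, limma adjusted p = 0.000597). Its arrays without Dox, at 1.72 and 1.64, lay near the floor of 1.04, and with double the floor it was 1.87-fold higher. The call of Tcf3 (0.92, adjusted p = 0.0448) ended without either DoxOn_day2, either DoxOFF_day2 or either DoxOFF_day4 array (adjusted p up to 0.199). Its 2 probes disagreed. The other probe, whose older platform symbol is Tcfe2a, gave -0.02 at day 2 (adjusted p = 0.951) and -0.56 at day 4 (adjusted p = 0.0146), where the first gave 0.61 (adjusted p = 0.0877). Tcf3 has also been used as a name of Tcf7l1, so which gene the first probe reads is uncertain. The endothelial SOX factors Sox7 (-1.35, adjusted p = 0.0346) and Sox17 (-1.17, adjusted p = 0.016) were called lower at day 2, and Sox18 (-0.43) was not called. Sox17 was also in the endoderm marker list, where 5 of 5 tested markers were lower with Dox at day 2. Apart from array removal, Sox7 lost its call in 6 settings, double the floor among them (adjusted p = 0.25), and Sox17 in 4. Sox7 lost its call without either DoxOn_day2 array, DoxOFF_day2 replicate 2 or either DoxOFF_day4 array (adjusted p up to 0.145), and Sox17 without DoxOn_day2 replicate 2 or either DoxOFF_day2 array (adjusted p up to 0.0751).

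At day 4, 5 partner factors were lower with Dox and 1 higher (median -0.12), where 15.5% of all probes were lower and 14.4% higher. Ldb1, the bridge of the complex, was 1.91-fold lower (-0.94 ± 0.10, limma adjusted p = 0.000555). Tcf12, an E-protein that pairs with Tal1, was 4.97-fold lower (-2.31 ± 0.12, adjusted p = 2.3e-05). Its arrays gave 6.09 and 6.22 with Dox and 8.36 and 8.58 without. Tal2, a relative of Tal1, was 14.8-fold lower (-3.89 ± 0.18, adjusted p = 1.4e-05), at 8.19 and 8.27 without Dox and 4.11 and 4.58 with it. Over time without Dox, Ldb1, Tcf12 and Tal2 rose by 0.74, 3.08 and 3.46 on the log2 scale. With Dox their changes over time were -0.15, 1.12 and 0.05. Gata1 (-0.25, adjusted p = 0.229), Gata2 (0.29, adjusted p = 0.0685) and Lyl1 (0.09, adjusted p = 0.784) did not pass. Cbfb, the partner of Runx1, was called lower (-0.59 ± 0.16, adjusted p = 0.0293), but not without either DoxOn_day2 or either DoxOn_day4 array or DoxOFF_day4 replicate 2 (adjusted p up to 0.129). Spi1, a myeloid ETS factor, was called at -0.48 (adjusted p = 0.0249), lost without DoxOn_day4 replicate 1 or either DoxOFF_day4 array (up to 0.113). Nfe2, an erythroid and platelet factor, was at least 1.53-fold higher (adjusted p = 0.0436), with 0 of 2 arrays without Dox above background. Nfe2 lost its call without either DoxOFF_day2 array or any day 4 array (up to 0.168), and 5 other settings ended it, double the floor among them. Fabp7, which made up nearly all of the neural marker sum without Dox at day 4, was highest in the same group as Tal2 and Tcf12. So was Tubb3 (6.90 and 7.12, against up to 6.88 elsewhere), while Nes and Pax6 of the neural list were not. Their part in these levels was not tested.

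In the families of the 7 genes, 20 of 22 other ETS genes were tested (Ets1 and Fev had no probe here). Spic, a factor of macrophages, was 13.7-fold higher with Dox at day 2 (3.77 ± 0.25, limma adjusted p = 0.000311) and higher by 2.61 ± 0.25 at day 4 (adjusted p = 0.000339). At day 4 only 1 of its 2 arrays without Dox was above background, and with double the floor it was 3.83-fold higher. Elf5, known from trophoblast, was 6.82-fold higher at day 2 (2.77 ± 0.17, adjusted p = 0.000245). At day 4 it was called at 0.80 (adjusted p = 0.0115), and lost that call without DoxOn_day4 replicate 2 or DoxOFF_day4 replicate 2 (up to 0.0702). Elf3, an epithelial factor, was higher by 0.69 at day 2 and 0.68 at day 4 (adjusted p = 0.00461 and 0.00152), and Etv4, an FGF-responsive relative of Etv2, was higher by 1.26 ± 0.13 at day 4 (adjusted p = 0.000455). Over time Etv4 was called only without Dox, with a log2 change of -1.58. Spdef was called lower at day 2 (-0.90, adjusted p = 0.00883; lost without either DoxOn_day2 array, up to 0.0551). Etv1 was called at day 4 (0.64, adjusted p = 0.0326; lost without any array other than DoxOFF_day4 replicate 1, up to 0.119, and below double the floor on each of the 8 arrays). In all, 3 ETS genes were higher and 1 lower at day 2 (median 0.12), and 5 higher and 0 lower at day 4 (median 0.16; 6 and 0 at an unadjusted p under 0.05). Over all probes 5.55% were higher and 6.25% lower at day 2, and 14.4% higher and 15.5% lower at day 4. At an unadjusted p under 0.05, 8564 of 21661 probes passed at day 4 in either direction.

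Of the RUNX, LMO and LDB relatives of Runx1 and Lmo2, 6 of 7 were tested (Runx3 had no probe here). None of the 6 was called at day 2 (median -0.15), where 11.8% of all probes were called. At an unadjusted p under 0.05, 1 of the 6 passed, where 5432 of 21661 probes did. At day 4, 1 was higher and 2 lower, where 14.4% of all probes were higher and 15.5% lower. The Dox changes of the LIM-only genes Lmo3 and Lmo1 were opposite to that of Lmo2. Lmo3 was 7.93-fold lower (-2.99 ± 0.18, limma adjusted p = 4.1e-05), and Lmo1 was at least 3.19-fold lower (adjusted p = 0.0011; 0.0857 with double the floor). Over time without Dox, Lmo3 rose by 3.05 on the log2 scale. Its arrays with Dox gave 1.88 and 1.76 at day 2 and 1.96 and 2.51 at day 4. Lmo4 did not pass (0.04 ± 0.12, adjusted p = 0.832). Ldb2, a relative of Ldb1, was called higher (0.95 ± 0.19, adjusted p = 0.0103), but not without DoxOn_day4 replicate 1 or DoxOFF_day4 replicate 1 (up to 0.0617). Runx2 gave -0.02 ± 0.16 (adjusted p = 0.962).

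Endothelial surface and junction genes, the class to which Pecam1 belongs, gave calls in both directions (22 of 23 tested; Ecscr had no probe here). At day 2, 5 were higher and 3 lower with Dox (median 0.28), where 5.55% of all probes were higher and 6.25% lower. Robo4, a guidance receptor of vessels, was 5.35-fold higher (2.42 ± 0.12, limma adjusted p = 9.9e-05). Ramp2 (-1.54 ± 0.14, adjusted p = 0.001), a receptor partner for adrenomedullin, and Nos3 (-1.08 ± 0.13, adjusted p = 0.00376), the endothelial nitric oxide synthase, were lower. The other 5 calls depended on single arrays. Esam (1.42, adjusted p = 0.00889) lost its call when DoxOn_day2 replicate 1 or DoxOFF_day2 replicate 1 was left out (up to 0.0582). S1pr1 (at least 2.14-fold, adjusted p = 0.028) lost it with double the floor (adjusted p = 0.448) and without any day 2 array or DoxOFF_day4 replicate 1 (up to 0.14). Tek (0.87, adjusted p = 0.0405) lost it without any day 2 array or either DoxOFF_day4 array (up to 0.163). Icam2 (at least 1.52-fold, adjusted p = 0.0337) lost it with double the floor and without either DoxOFF_day2 array or any day 4 array (up to 0.125), and Cldn5 (-0.65, adjusted p = 0.0138) without any day 2 array other than DoxOFF_day2 replicate 2 (up to 0.0801).

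At day 4, 6 endothelial genes were higher and 3 lower (median 0.11), where 14.4% of all probes were higher and 15.5% lower. Flt1, a VEGF receptor, was higher by 3.01 ± 0.36 on the log2 scale (limma adjusted p = 0.000973). Only 1 of its 2 arrays without Dox was above background, and with double the floor it was 5.07-fold higher. Robo4 was 3.51-fold higher (1.81 ± 0.12, adjusted p = 5.4e-05) and Rasip1, which acts in vessel lumen formation, was 2.99-fold higher (1.58 ± 0.19, adjusted p = 0.00103). Both fell over time. The log2 changes of Robo4 were -2.49 with Dox and -1.89 without, and those of Rasip1 were -1.85 and -3.16. The Robo4 arrays without Dox at day 4, at 1.60 and 1.53, lay near the floor of 1.04. S1pr1, a sphingosine phosphate receptor, was lower by -2.37 ± 0.25 on the log2 scale (adjusted p = 0.00058), with 1 of 2 arrays with Dox above background, and 3.40-fold lower with double the floor. Ramp2 (-1.31, adjusted p = 0.000548) and Nrp1 (-1.47, adjusted p = 0.0159) were also lower. Nrp1 lost its call without DoxOn_day4 replicate 1 or either DoxOFF_day4 array (up to 0.0779). Cdh5, the endothelial cadherin, and Tie1, an endothelial receptor kinase, were near background on all 8 arrays, between 1.23 and 1.93 and between 2.04 and 2.41 on the log2 scale. Over time 10 of 22 endothelial genes fell and 1 rose without Dox, and 12 fell and 2 rose with Dox. Under the alternatives other than normexp on the local background, 9 to 11 fell and 0 to 2 rose without Dox. With Dox 9 to 12 fell and 0 to 2 rose. The falls of Cdh5 and Icam2 with Dox lost their calls with double the floor. Both rises with Dox, Flt1 and Nos3, lost theirs when single Dox arrays were left out. Over all probes 17.9% fell and 20.2% rose without Dox, and 9.33% fell and 9.63% rose with it. Of the endothelial genes, Cldn5, a tight junction gene, fell 25.3-fold without Dox and 5.39-fold with Dox (adjusted p of 8.3e-07 and 5.1e-05). Cldn5 was higher with Dox at day 4 (1.58, adjusted p = 9.6e-05), against -0.65 at day 2, a call that depended on single arrays. The day 4 change minus the day 2 change was 2.23 (adjusted p = 0.000176).

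The mature blood genes were read in the same way. Of 10 erythroid genes 4 were tested, since 5, the globins among them, had no probe here and Rhag was above background on 0 arrays. With Dox 1 was lower at day 2 and 1 higher at day 4, where 11.8% and 29.9% of all probes were called. Epor, the erythropoietin receptor, was 2.17-fold higher at day 4 (1.12 ± 0.11, limma adjusted p = 0.000461). Over time Epor was called only without Dox, with a log2 change of -1.57. At day 2 it was called lower (-0.53, adjusted p = 0.0271) and lost that call without any day 2 array (up to 0.132). Of 17 white cell and platelet genes 13 were tested, with 1 higher and 1 lower at day 2 and 1 higher at day 4. Cd68, a lysosomal protein of macrophages, was 2.26-fold higher at day 4 (1.18 ± 0.10, adjusted p = 0.000194). Its log2 change over time was -1.25 without Dox and 0.40 with Dox. Cd68 (-0.47, adjusted p = 0.026) and Itgb3 (0.38, adjusted p = 0.0497) had calls at day 2 that ended without any day 2 array (up to 0.133 and 0.21), and that of Itgb3 also ended without any day 4 array. Ptprc, the pan-leukocyte antigen, lay between 1.60 and 2.87 and Itga2b, an integrin of platelets and early blood progenitors, between 1.04 and 1.92 on the log2 scale over the 8 arrays.

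**Figure D4:**
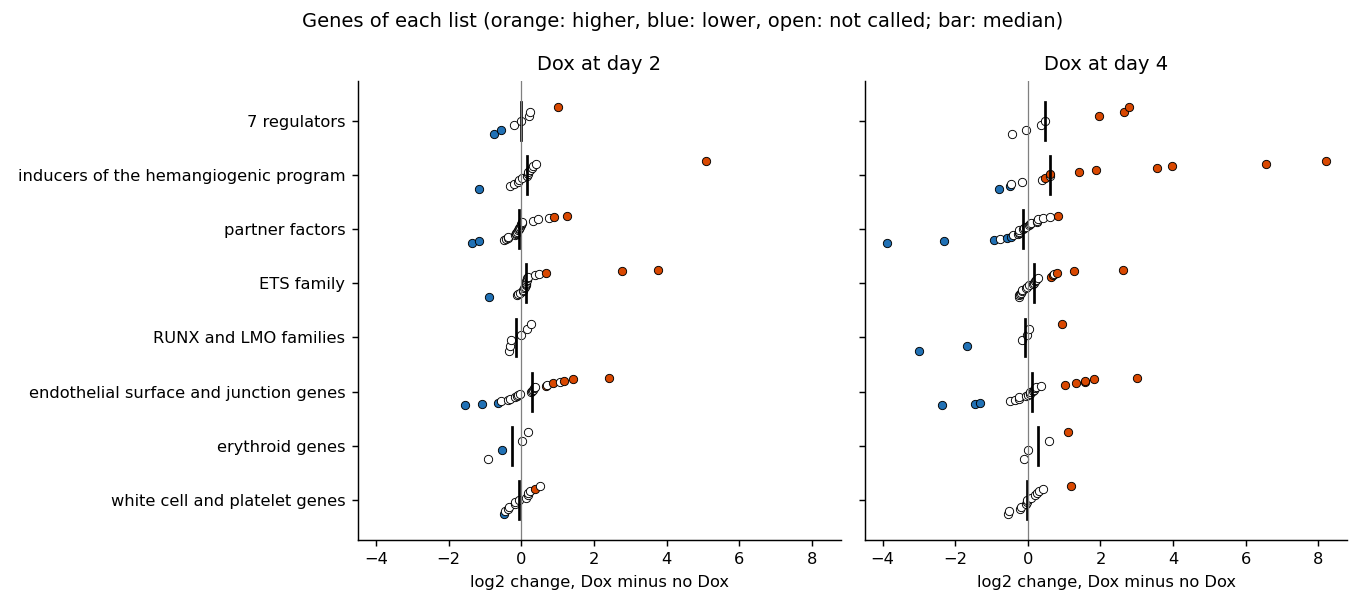
log2 change with Dox at day 2 (left) and day 4 (right) for each tested gene of the 7 regulators and of 7 related lists, coloured where limma's adjusted p was under 0.05, with the list median as a bar. The inducers spread to the right at day 4 (8 of 14 higher, Tbx6 among them), and 5 of 23 partner factors are lower there. Over all probes 14.4% were higher and 15.5% lower at day 4.

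For the genes whose highest and lowest group means differed by at least 1 log2 unit, Etv2, Lmo2 and Pecam1, the nearest profiles among all named probes were found by the root mean square difference of mean-centred log2 values over the 8 arrays. Etv2 lay nearest to Hspb8 (0.182), a small heat shock protein, then to Slc6a15 (0.203), an amino acid transporter, and Prss8 (0.217), a membrane protease. Lmo2 lay nearest to Cpt1b (0.268), which carries fatty acids into mitochondria, to Ninj2 (0.295), an adhesion protein, and to Dsp (0.304), a desmosome protein. Pecam1 lay nearest to Mfap5 (0.219), a matrix protein, to Dppa2 (0.222), a gene of pluripotent and germ cells, and to Pdcl2 (0.308). The Mfap5 and Pdcl2 means were at the floor without Dox at day 4, as was that of Pecam1. These distances describe likeness over 8 arrays and carry no test.

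**Figure D5:**
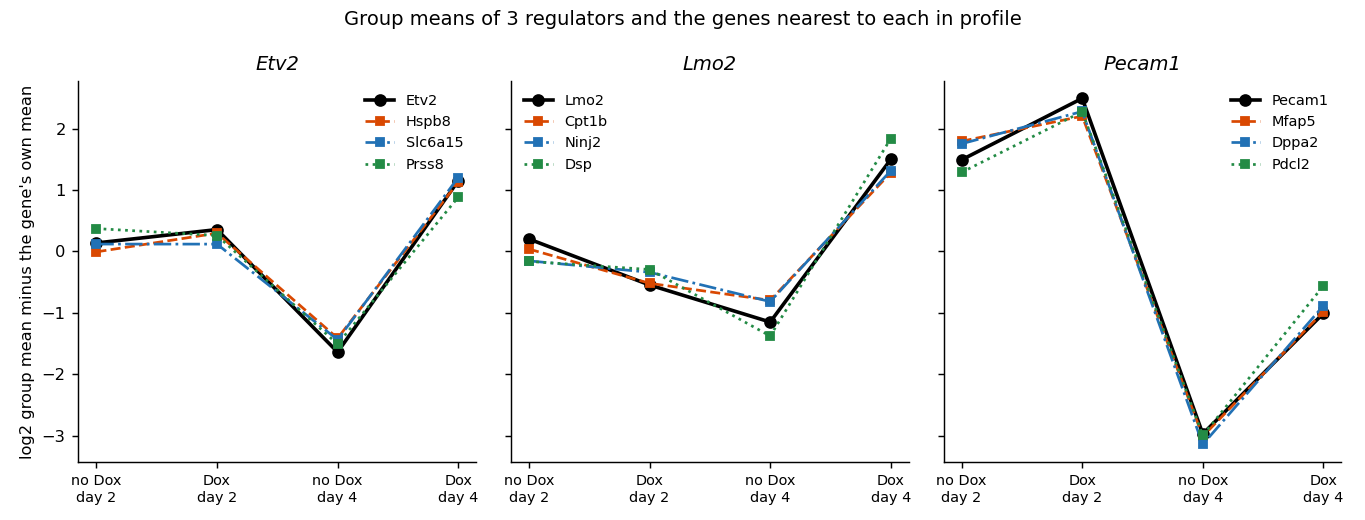
Group means of Etv2, Lmo2 and Pecam1 and of the 3 genes nearest to each, as log2 intensity minus the gene's own mean over the groups (vertical axis), for the 4 groups. In the Etv2 and Lmo2 panels the lines dip without Dox at day 4 and peak with Dox at day 4, and in the Pecam1 panel they peak with Dox at day 2.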

How the data were processed

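Total RNA of 8 embryoid body samples, 4 groups of 2 by title, was measured on Toray 3D-Gene arrays. Per the labels' protocols, RNA was amplified to amino allyl aRNA and coupled to Cy5. The deposited scanner files give a spot intensity and a local background intensity, scaled over scanner gains per the file headers and not background-corrected. A second, processed intensity table by the authors comes without a record of its steps, and its log2 served as an alternative. The number of arrays limits the precision.

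For this work the mean of the unflagged blank spots was subtracted (blank SD 0.871 to 1.37 intensity units), arrays were quantile normalized, values were set to a floor of 2.06 and log2 transformed. Arrays of a group correlated at 0.993 or more, and arrays of different groups at 0.985 or less. Between 20197 and 20927 gene probes were above background. limma 3.58.1 in R 4.3.3 fitted 1 mean per group over all 8 arrays, followed by eBayes and Benjamini-Hochberg adjustment over 21661 probes, 2-sided. The code was tested on simulated data.

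Platform symbols were updated with a RefSeq table (GRCm38.p6), which changed 3947. A gene with several probes was represented by the brightest. Named genes were the 7 members, Tbx6 and T, up to 4 called list genes with the largest change in a comparison, complex partners, Kdr and Bmp4, and the 3 genes nearest in profile. Further genes were named after their values were seen where a count was 5 or fewer, or as levels (Cdh5, Tie1, Ptprc, Itga2b). The members, lists and rules were chosen with earlier results of these data known. Alternatives covered background correction, scaling, dim-probe filter, background threshold, floor, the authors' table, the arrays fitted, a replicate block and each array left out. Replicate numbers share only a number, since deviations of same-numbered arrays correlated between groups at -0.27 to 0.23.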

Additional observations from a re-analysis of the deposited data

Results flagged for a closer look

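The Dox response differed between day 4 and day 2, by limma's test of the difference itself, for 4 of the 7 genes, where 22.1% of all probes were called. The day 4 change minus the day 2 change was 3.40 for Lmo2, which was lower with Dox at day 2 and higher at day 4, and 2.57 for Etv2. It was 0.91 for Tal1 and 0.96 for Pecam1. The Tal1 value was no longer called with normexp on the blank spots (0.10, adjusted p = 0.0954) or with no background correction (0.09, adjusted p = 0.108), and the sign of the Pecam1 value turned under settings given with the processing results. Groups of 2 arrays are too small for a check of single outlying arrays.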

How the results depend on the processing

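Of 668 changes of the 7 genes under the alternatives, 623 kept their side of the threshold and, where called, their direction. In 32 a call was lost, in 5 gained and in 8 the sign of a called change turned. In 39 more the sign differed with neither value called, and this count includes Fli1 changes that were 0 in 1 of the fits compared. With normexp on the local background column 0 of the 7 genes were called in any comparison. Tal1 then gave 0.012 for Dox at day 2 and -0.012 for the difference between the days, Pecam1 -0.053 for that difference and 0.0011 for time without Dox, and Lmo2 0.0040 for time without Dox. Under that setting limma called 1, 0, 0, 0 and 3 probes of the whole array in the 5 comparisons (477, 855, 523, 605 and 783 at an unadjusted p under 0.05). With normexp on the blank spots, and with no correction, 1 gene was lower with Dox at day 2, since Tal1 lost its call (adjusted p = 0.148 and 0.166), and the difference between the days was higher for 2 and lower for 1, Pecam1, at -0.39 and -0.36. With double the floor the Pecam1 difference was -0.040. With no filter, and with double the floor, 1 gene rose over time with Dox, since Etv2 lost its call (adjusted p = 0.0578 and 0.055). Where only probes above background on all 8 arrays were tested, 5 of the genes remained, without Pecam1 and Fli1, so that 0 were higher with Dox at day 2 and 0 fell over time with Dox. The same 2 counts were 0 in the authors' table, where Pecam1 and Fli1 lack a value on some arrays and were not tested, and where 1 gene was lower at day 2 and Tal1 missed (adjusted p = 0.0728). With only the arrays compared 1 was lower at day 2 (Tal1 adjusted p = 0.115), and all-array calls there were 1345 against 2557. The replicate block also left 1 lower at day 2 (Tal1 adjusted p = 0.0541) and moved no other count of the 7 genes. With single arrays left out, 1 to 2 genes were lower at day 2, 1 to 2 rose over time with Dox, and 0 to 1 were lower at day 4, lower in the difference and higher over time without Dox, where Fli1 was the gene gained. All-array calls at day 2 then lay between 1189 and 2281. The cause of these moves was not tested. Fli1 and, without Dox at day 4, Pecam1 lay at the blank level, and Runx1 and Tal1 close to it, which limits what can be said of them.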

Other observations

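Cardiac or lateral mesoderm and endoderm markers, fixed as lists for the other cell types these aggregates could hold, were also read. The summed intensity of 5 cardiac or lateral mesoderm markers with a probe was 135 to 137 with Dox and 203 to 204 without at day 2, and 136 to 146 with Dox and 43.4 to 46.8 without at day 4. Most of the sum at day 2 was Myl7, at 6.88 and 6.85 on the log2 scale with Dox and 7.45 and 7.39 without. With Dox at day 4 most of it was Pdgfra (6.06 and 5.99) and Myl7 (5.95 and 5.88). Pdgfra, a receptor of paraxial and cardiac mesoderm, was lower with Dox at day 2 (log2 change -2.50 ± 0.12, limma adjusted p = 0.000106; 1 of 2 arrays with Dox above background, and 3.05-fold lower with double the floor) and 4.56-fold higher at day 4 (2.19 ± 0.12, adjusted p = 2.8e-05). Its response thus changed sign between the days, as that of Lmo2 did. Endoderm markers summed to 34.4 to 34.7 with Dox and 128 to 147 without at day 2. There 5 of 5 tested markers were lower with Dox, where 6.25% of all probes were lower. At day 4 the endoderm sums were 105 to 118 with Dox and 31.3 to 39.2 without, and 2 markers were higher (Foxa2 and Gata6) and 1 lower (Ttr, which was above background on 0 of 2 arrays with Dox and lost its call with double the floor).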
